A study of Mus musculus with 36 samples.

Results

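The circular RNAs (circRNAs) of 9 synaptic adhesion host genes were examined: Nrxn3, Nlgn1, Ptprd, Ptprk, Lrp1b, Fat3, Adgrl3, Ctnna2 and Cntn1. A circRNA was taken as a member when both of its ends lay inside 1 of these genes on the strand of that gene (GENCODE M21, genome build GRCm38). The rule found 264 of the 33259 circRNAs listed in the hippocampus, the frontal cortex or both, 185 of 23730 in hippocampus and 169 of 19811 in frontal cortex, and 90 members were listed in both tissues. The samples were whole hippocampi and frontal lobes of adult male C57BL/6 mice (C57BL6/N in the methods), 9 to 10 weeks old, held on a light-dark cycle with no other treatment. They were collected at 6 times given as hours after lights on (zeitgeber time, ZT): ZT1, ZT5 and ZT9 in the light phase, and ZT13, ZT17 and ZT21 in the dark phase, with 3 samples per tissue and time, 36 in all. The sources do not say which samples came from the same animal, so p-values measure the spread between samples.

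A circRNA forms when the end of a later exon is spliced back to the start of an earlier exon, and a sequencing read across that back-splice junction shows the circle. Neurons are rich in circRNAs, many of them from genes with long introns that encode synaptic proteins. Synaptic adhesion molecules span the synaptic cleft and hold both sides of the synapse together: neurexins such as Nrxn3 on the axon bind neuroligins such as Nlgn1 on the dendrite, latrophilins such as Adgrl3 bind FLRT proteins and teneurins, and receptor tyrosine phosphatases such as Ptprd bind postsynaptic partners that organise the synapse. Lrp1b is a giant endocytic receptor of the LDL receptor family, Fat3 an atypical cadherin, Cntn1 a membrane-anchored immunoglobulin-domain protein, Ptprk a phosphatase that binds its own kind on the next cell, and Ctnna2 (alpha-N-catenin) works inside the cell, where it links cadherins to actin.

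The back-splice junctions of the leading circles are shown first, since each junction is the only sequence that sets a circle apart from the linear RNA of its gene. Circles are named by gene and by rank in reads within the gene. Each line holds 30 nucleotides built from GENCODE M21 transcripts, 5′ to 3′, with the last bases of the circle's last exon in lower case and the first bases of its first exon in capitals. The first set shows 3 Nrxn3 circles and 2 Adgrl3 circles that begin at a shared exon and differ in where they end.
Nrxn3_1: ggctgccttaaagagCACGAGAGGAGAACG
Nrxn3_2: accagtgcaatgaccCACGAGAGGAGAACG
Nrxn3_3: gaacctgcgaaagagCACGAGAGGAGAACG
Adgrl3_1: agagcctatgtccagGGATTTCTACCACAG
Adgrl3_3: catcgctcaacagagGGATTTCTACCACAG

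The second set shows circles that share no exon with one another: the 3 leading circles of Lrp1b, which come from separate parts of the gene, 2 from separate parts of Ptprd, the second circle of Fat3, and the leading circles of the 2 genes with the fewest reads, Ptprk and Cntn1.
Lrp1b_1: aagtaattgtggaaaCTTCTTGTTCTGGAC
Lrp1b_2: attgtacaaaagaggTCAATCACAGCTGTC
Lrp1b_3: cccctgacatgtgtgATAAAAAGACTTGTG
Ptprd_2: tcccaggaatatgagAAGATGTATGCAACC
Ptprd_3: gaaccatgcaatcaaTTCGCCGTGTCCCAC
Fat3_2: tcaatatcaaaacagGAGTCATCACTGCTG
Ptprk_1: gaacgaagtgtgcagAGACGCAATGGAGAA
Cntn1_1: ctctggtgatcacaaTGTCTGAGGAGGACA

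The leading circles of Fat3, Nlgn1 and Ptprd carry the start codon of their host's protein, so their first 30 coding bases are shown from the start codon, in capitals.
Fat3_1: ATGggacactgtatgggcacaaagcctcct
Nlgn1_1: ATGgcacttcccagatgcatgtggccaaat
Ptprd_1: ATGgtgcccgtggccaggccgctgtcgctg

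The members held 8242 of the 793237 circular reads of the 36 samples, 1.039%. Circular reads per sample ranged from 6754 to 73252 in the hippocampus (median 21923.5) and from 8107 to 34803 in the frontal cortex (median 20301), and the smallest count above 0 was 2. The hippocampal samples ZT13 replicate 1 (the shallowest) and ZT1 replicate 3 (the deepest) and the cortical sample ZT9 replicate 3 stood apart in depth. The tissues matched their labels in their marker host genes: the summed level of the hippocampus markers was 18.3 to 61.2 in hippocampus and 0 to 20.9 in frontal cortex, and that of the cortex markers 0 to 6.31 and 0 to 17.6. The markers Lct, Dsp, Rorb and Fezf2 had no circle. The striatum markers reached 4.50 in the frontal cortex against 1.79 in the hippocampus, with the circles of Drd1, Drd2 and Adora2a at 0. The oligodendrocyte markers had a median summed level of 0.924 in hippocampus and 0 in frontal cortex, the astrocyte markers 1.26 and 1.17, and no circle of the 6 microglia or 5 choroid plexus markers was listed.

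The 9 genes gave between 9 and 71 circles each, and the number of circles did not follow the number of reads. Lrp1b, on chromosome 2 (40595246 to 42653624, minus strand), had the most circles, 71, with 678 reads in hippocampus and 670 in frontal cortex. Fat3, on chromosome 9 (15910189 to 16501285, minus strand), had only 18 circles but the most reads, 1801 and 1978. Adgrl3 (chromosome 5, 81020138 to 81825133, plus strand) had 42 circles, Ptprd (chromosome 4, 75941238 to 78211961, minus) 39, Nrxn3 (chromosome 12, 88722876 to 90334935, plus) 31, and Nlgn1 (chromosome 3, 25426215 to 26332460, minus) 27. Ctnna2 (chromosome 6, 76881637 to 77979699, minus) had 17 circles, Ptprk (chromosome 10, 28074820 to 28597397, plus) 10, and Cntn1 (chromosome 15, 92051165 to 92341967, plus) 9. Of the 264 circles, 147 (55.7%) were found in 1 sample alone, against 57.3% of the 29473 circles inside any gene.

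Reads were spread over the circles of a gene in different ways. In Fat3, a single circle held 97.5% of all reads, while in Ptprd the leading circle held 19.2% and in Lrp1b 20.9%. The leading circle held 41.3% of the reads in Nlgn1, 38.9% in Nrxn3 and in Ptprk, 28.5% in Adgrl3 and 22.0% in Cntn1. In Ctnna2 it held 74.7%.

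Fat3_1 was exon 2 of the transcript Fat3-205 closed on itself (chromosome 9, 16374949 to 16378254, 3306 nucleotides). Of these, 3277 were coding, and the start codon of the protein began at nucleotide 30 of the circle. The introns on its sides were 122766 and 127913 nucleotides long. It was found in all 18 samples of both tissues, and no other member was.

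Most Nrxn3 reads came from circles that began at 1 exon. Of the 31 circles, 5 began at position 89187022, the start of exon 4 of Nrxn3-205, and these held 332 of the 527 reads (63.0%). Nrxn3_1 joined exons 4 and 5 (464 nucleotides, 205 reads), Nrxn3_2 ran over exons 4 to 14 (2505 nucleotides, 72 reads) and Nrxn3_3 over exons 4 to 7 (1287 nucleotides, 51 reads). The intron before exon 4 was 336713 nucleotides long. Adgrl3 also had a shared start, with a smaller share: 7 of its 42 circles began at exon 8 of Adgrl3-202 (position 81646410) and held 40.4% of its reads. Adgrl3_1 covered exons 8 to 11 (632 nucleotides, 225 reads) and Adgrl3_3 exons 8 to 23 (2334 nucleotides, 50 reads), while Adgrl3_2 covered exons 12 to 15 (693 nucleotides, 91 reads). Shared edges were not particular to these genes. The most used edge held 66.1% of the reads in Nlgn1 (3 circles), 61.1% in Ptprk (4 circles) and 25.1% in Lrp1b (4 circles).

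Nlgn1 circles shared edges within 1 part of the gene. Nlgn1_1 was exon 3 of Nlgn1-205 alone (chromosome 3, 26133242 to 26134052, 811 nucleotides, 440 reads), with the start codon at nucleotide 319. Nlgn1_2 (259 reads) kept one edge of this exon and ended 498 nucleotides beyond the other, and Nlgn1_3 (172 reads) ended 1337 nucleotides beyond on the opposite side. Only 5 of the 27 Nlgn1 circles had both ends on annotated exon edges, so the annotated exons do not describe most circles of this gene.

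Lrp1b and Ptprd, the longest of the 9 genes at 2058.4 and 2270.7 kb, gave circles from several parts. In Lrp1b these were exons 38 to 41 of Lrp1b-201 (Lrp1b_1, 776 nucleotides, 282 reads), exons 17 to 20 (Lrp1b_2, 492 nucleotides, 256 reads) and exons 67 to 72 (Lrp1b_3, 717 nucleotides, 234 reads). In Ptprd they were exons 2 to 4 of Ptprd-206 (Ptprd_1, 454 nucleotides, 78 reads), exons 23 to 25 (Ptprd_2, 372 nucleotides, 67 reads) and exons 10 to 13 (Ptprd_3, 1131 nucleotides, 41 reads). Of the 39 Ptprd circles, 8 closed at position 76039281, the 3′ end of exon 25, and held 30.2% of the reads. The map of exon spans sets these patterns side by side.

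**Figure D1:**
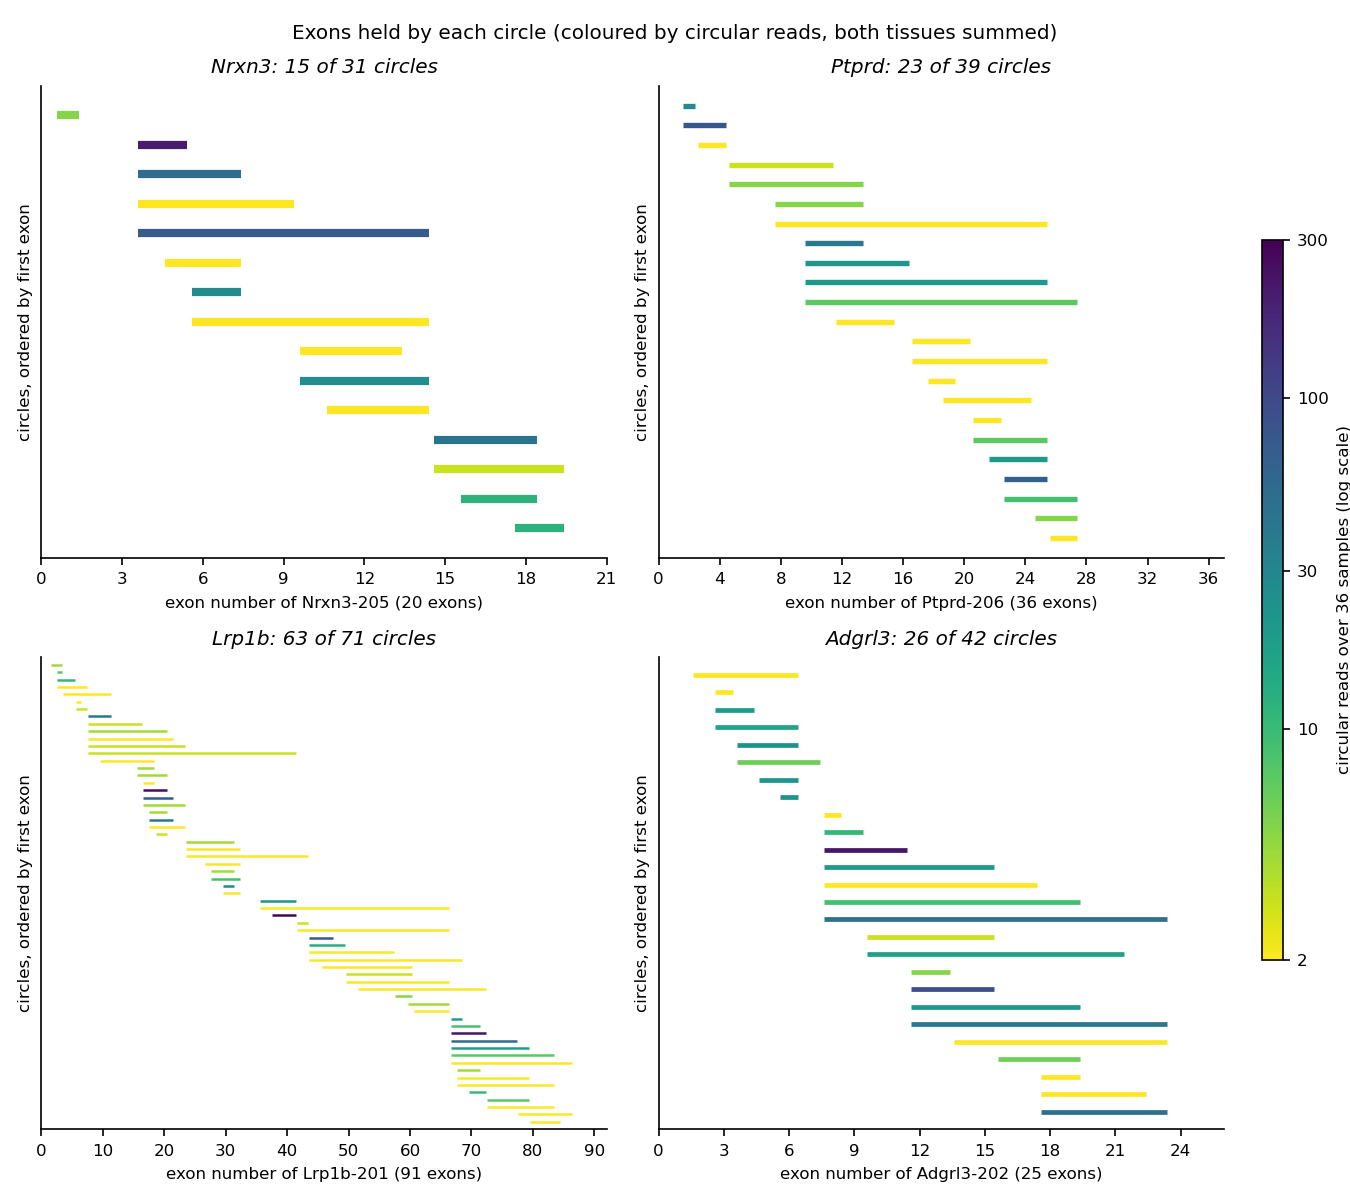
Exons covered by the circles of Nrxn3, Ptprd, Lrp1b and Adgrl3 that fit 1 annotated transcript; the horizontal axis is the exon number of that transcript, each line is 1 circle, and colour gives its reads over the 36 samples on a log scale. Several Nrxn3 circles begin at exon 4 and several Adgrl3 circles at exon 8, while the circles of Lrp1b, 63 of 71 drawn, are spread over its 91 exons.

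The leading Ctnna2 circle came from an intron. Ctnna2_1 (chromosome 6, 77567162 to 77574832, a span of 7671 nucleotides, 186 reads) lay inside intron 7 of Ctnna2-202, an intron of 461237 nucleotides. The nearest annotated Ctnna2 exon edges were 31584 and 25988 nucleotides away, and the span overlapped 0 annotated Ctnna2 exons. Exons of other genes were not checked. Ctnna2_2, from exons 8 and 9 (234 nucleotides), had 20 reads. The Ptprk circle with the most reads, exons 6 and 7 of Ptprk-201, had 14 reads, and Cntn1_1, exons 4 to 13 of Cntn1-204, had 9.

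The members spanned long stretches of the genome. Their median genomic span was 37.4 kb, against 19.5 kb for 791 circles of other adhesion genes and 11.5 kb for the 29473 circles in any gene, and 65 members (24.6%) spanned more than 100 kb, against 18.7% and 6.10%. The medians for introns, spliced length and exons cover only circles that fit 1 transcript: 186 members, 495 of other adhesion genes and 20668 over all genes. The intron before the first exon had a median of 50.4 kb in these members, 33.2 kb in other adhesion genes and 8.37 kb over all genes. The median spliced length was 807, 624 and 607 nucleotides, with a median of 4, 3 and 4 exons. Both ends lay on annotated exon edges in 70.8% of members, 63.8% of circles of other adhesion genes and 71.5% over all genes.

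Most members were made of coding sequence. Of the 186 members that fit 1 transcript, 82.8% held coding bases only, against 83.9% over all genes, and in 103 (55.4%) the length was a multiple of 3, against 38.3% over all genes and 50.1% in other adhesion genes. A circle of such a length keeps the reading frame when it is read around. The start codon of the host's protein lay in 23 of these circles (12.4%), close to the 12.9% over all genes, but the 23 held 60.2% of the reads of the 186 circles, against 19.8% in the like set over all genes, and 3697 of those reads came from Fat3. These shares are descriptions, since circles of 1 gene share exons and are not independent.

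The levels of the genes were compared as reads per 10000 normalized circular reads, summed over the circles of a gene found in at least 2 of 3 replicates of a time point (59 members). A read counts a junction whatever the circle's length, but the rule kept unequal shares of the reads of each gene. In hippocampus and frontal cortex it kept 1782 of 1801 and 1943 of 1978 reads of Fat3. For Ptprd these were 161 of 211 and 141 of 196, and for Cntn1 8 of 23 and 0 of 18. Levels of genes with many rare circles are therefore understated beside the others. Fat3 was highest in every sample. Its level was 48.4 ± 7.62 (SD, n = 18) in the hippocampus, from 40.3 to 67.6 with a median of 45.0, and 62.1 ± 11.8 in the frontal cortex, from 47.3 to 99.4 with a median of 58.3. All 18 cortical samples lay above the hippocampal median, although the 2 ranges overlapped.

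Lrp1b came next in both tissues, with 15.2 ± 3.38 in the hippocampus (9.74 to 24.0, median 15.4) and 17.7 ± 5.63 in the frontal cortex (8.14 to 27.2, median 17.9). Nlgn1 had 14.6 ± 3.75 (5.64 to 20.0, median 15.5) and 12.96 ± 4.19 (3.49 to 20.9, median 13.3). In the hippocampus the order of this pair was not larger than the spread, with Lrp1b above Nlgn1 in 10 of 18 samples and a mean difference of 0.554 ± 5.76. Adgrl3 followed with 8.95 ± 2.69 (5.12 to 15.9, median 8.26) and 9.31 ± 4.88 (0 to 19.5, median 10.1).

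Nrxn3 had 5.07 ± 2.29 in the hippocampus (0 to 9.46, median 5.41) and 8.46 ± 2.65 in the frontal cortex (4.81 to 15.2, median 8.13). Ptprd had 4.07 ± 2.54 (0 to 9.30, median 4.05) and 4.30 ± 2.05 (0 to 8.59, median 4.34). Ctnna2 had 1.45 ± 1.86 (0 to 6.80, median 1.03) and 4.16 ± 1.73 (1.17 to 7.81, median 4.26). Cortical levels of Adgrl3 and Nrxn3 were not apart beyond their spread (difference 0.855 ± 5.74, Adgrl3 higher in 8 of 18), nor were Ptprd and Ctnna2 (0.139 ± 1.86). In the hippocampus Nrxn3 and Ptprd differed by 0.993 ± 3.30.

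Ptprk and Cntn1 were at the edge of detection. Ptprk had reads in 7 hippocampal and 6 cortical samples, 15 and 21 in all, and Cntn1 in 6 and 6, 23 and 18 in all. Both were too low for the tests, and no difference was detectable at this depth. Cntn1_2, exons 2 to 6, had its 8 reads in 3 cortical samples, and Cntn1_3, exons 16 to 23, its 8 reads in 3 hippocampal samples.

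**Figure D2:**
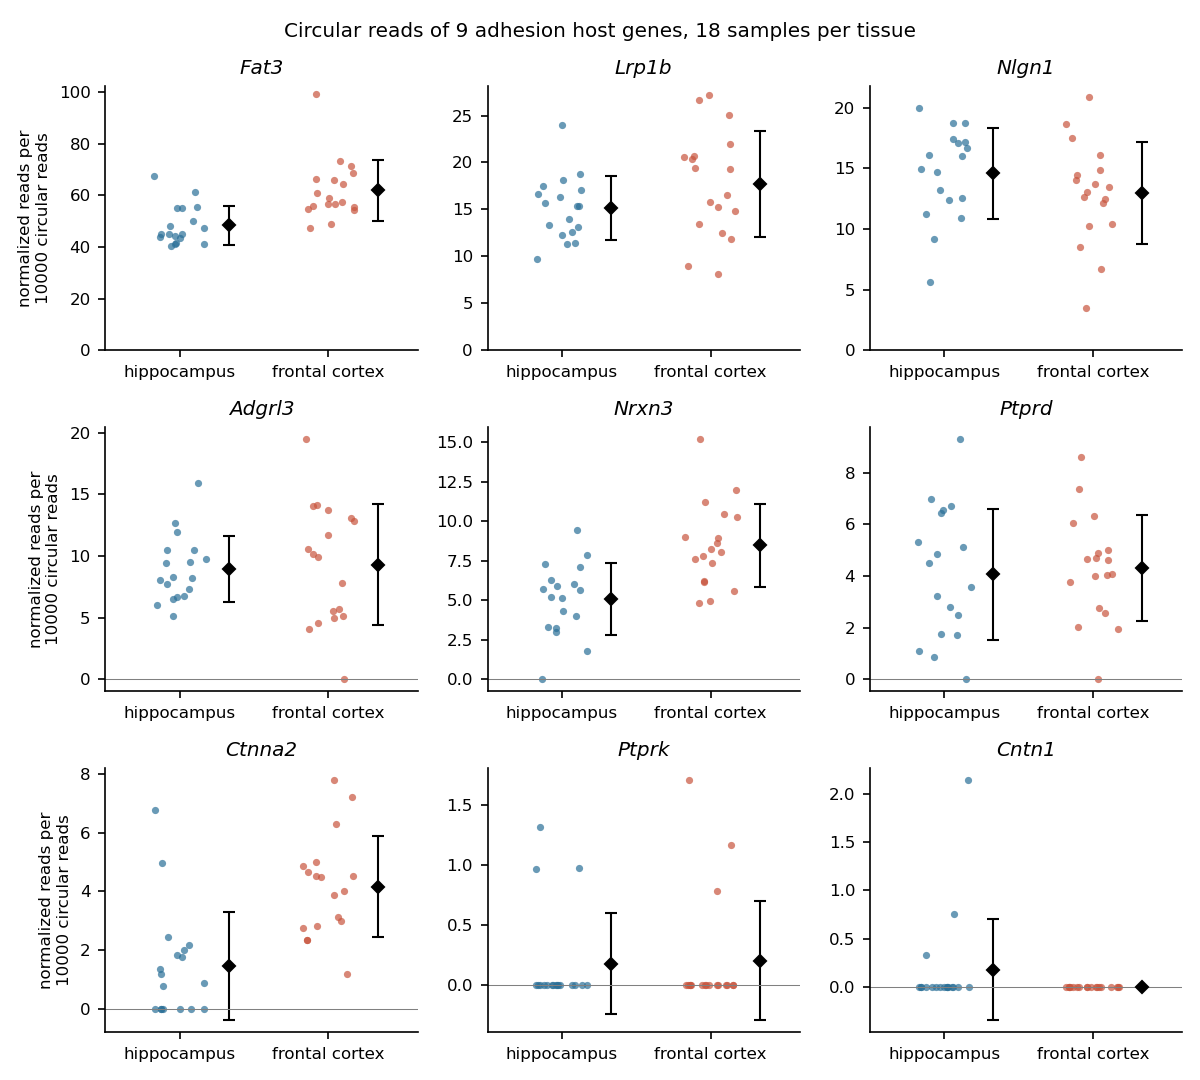
Level of each of the 9 host genes in every sample (reads per 10000 normalized circular reads, 1 panel per gene, 1 point per sample, 18 samples per tissue); the black diamond and bar give the mean ± SD. The cortical points of Fat3, Nrxn3 and Ctnna2 sit mostly above the hippocampal median, and the points of the other genes intermingle.

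The first comparison asked whether the circles of these genes are held at different levels in the hippocampus and the frontal cortex. Summed circular reads of Ctnna2, Nrxn3 and Fat3 were lower in the hippocampus, and 4 further genes did not pass the test. The test was the edgeR quasi-likelihood test on summed counts, Benjamini-Hochberg adjusted over 736 host genes. Over all host genes tested, 239 (32.5%) were called, 127 higher and 112 lower in the hippocampus, so 3 of 7 is a share near the background. The members' median log2 fold change was -0.26, against 0.03 over all host genes. In whole tissue, fewer cells of a type and less RNA per cell cannot be told apart, and the linear RNA of the host genes was not analysed here.

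Ctnna2 was lower by a log2 fold change of -1.75 (SE 0.39, 95% interval -2.54 to -0.95, adjusted p = 0.000518), and the ratio of the mean levels was 0.349. It did not pass the filter on low counts in the hippocampus alone and entered this test through its cortical reads. The direction of its call is therefore not independent of the filter. Reads of any Ctnna2 circle were seen in 14 of 18 hippocampal samples and in all 18 cortical samples. The tested hippocampal reads, 60, all came from Ctnna2_1 and were seen in 11 hippocampal samples. For the level of Ctnna2, 2 hippocampal samples lay above the cortical median. Nrxn3 was lower by -0.79 (SE 0.22, interval -1.23 to -0.36, adjusted p = 0.00361), a ratio of 0.599, and 16 of 18 cortical samples lay above the hippocampal median. The circle Nrxn3_1 held 65 of its 195 tested reads in hippocampus and 140 of 269 in frontal cortex. The result of the gene is therefore not separate from that of this circle. Fat3 was lower by the smallest margin, -0.36 (SE 0.087, interval -0.53 to -0.18, adjusted p = 0.00116), a ratio of 0.780. The adjusted p of these 3 stayed at or under 0.00635, 0.0176 and 0.0106 under the alternatives other than leaving out each sample. With each sample left out it stayed under 0.05.

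Lrp1b had a log2 fold change of -0.26 (interval -0.52 to 0.01, adjusted p = 0.147), which passed the test when 3 samples that stand apart in depth were left out (-0.35, adjusted p = 0.0300). Nlgn1 had 0.17 (interval -0.10 to 0.45, adjusted p = 0.353). For Adgrl3 the value was -0.06 (interval -0.46 to 0.34, adjusted p = 0.851) and for Ptprd -0.08 (interval -0.63 to 0.47, adjusted p = 0.854). For these genes no difference was detectable, and the intervals give the sizes that the data leave possible. Levels of the hippocampus and cortex markers moved with the tissue as given above, and the part of cell makeup in these differences was not tested.

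**Figure D3:**
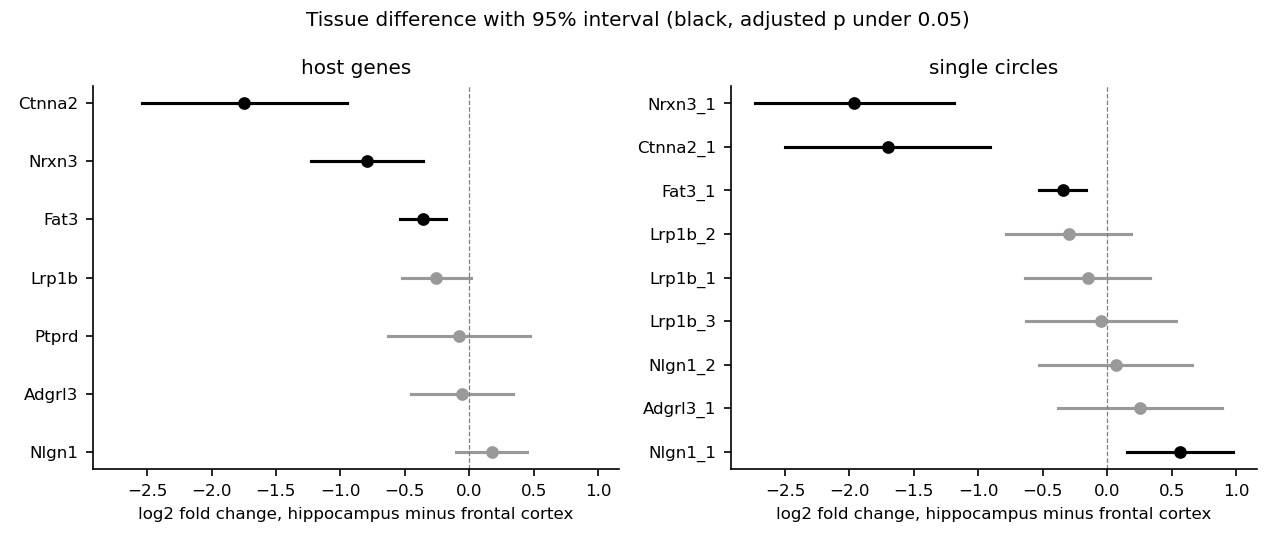
Log2 fold change, hippocampus against frontal cortex, of the 7 host gene sums and 9 single circles that were tested, with 95% intervals; black points passed an adjusted p of 0.05. Ctnna2, Nrxn3 and Fat3 and their leading circles lie below 0, and Nlgn1_1 is the called circle that lies above it.

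Leading circles of Nrxn3, Ctnna2 and Fat3 were lower in the hippocampus, and that of Nlgn1 was higher. Over both tissues, 9 circles passed the filter on low counts. Of these, 4 were called, 3 lower and 1 higher in the hippocampus, against 216 of 710 circles over all genes (30.4%). Nrxn3_1 and Ctnna2_1 did not pass the filter in the hippocampus alone and entered through their cortical reads. The direction of their calls is therefore not independent of the filter. Nrxn3_1 had 65 reads in hippocampus and 140 in frontal cortex. Its level ranged from 0 to 3.997 (median 1.68) in hippocampus and from 1.23 to 8.43 (median 4.52) in frontal cortex, and the mean levels were 1.69 ± 1.24 and 4.50 ± 2.01. The fitted log2 fold change was -1.96 (SE 0.38, adjusted p = 0.000155, edgeR), while the ratio of the means was 0.376. The fit weighs each time point on a log scale, and at ZT13 the 3 hippocampal samples had no Nrxn3_1 read. With tissue and time as additive terms, an alternative chosen after seeing the data, the value was -1.39 (adjusted p = 0.000841).

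The longer circles from the same exon did not show this difference in their reads. Nrxn3_2 had 39 reads in hippocampus and 33 in frontal cortex, and Nrxn3_3 had 25 and 26, both below the filter for a test. Nrxn3_1 therefore made up 28.9% of Nrxn3 reads in hippocampus and 46.4% in frontal cortex. The test of this choice of circle needs 2 tested circles of a gene, and Nrxn3 had 1. When 1 library was left out, a second Nrxn3 circle passed the filter in 34 of 36 fits, and the choice then passed the test in 9 of the 34 (adjusted p from 0.0141 to 0.245 over them, and 0.839 with no filter).

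Ctnna2_1, the intronic circle, had 60 and 126 reads, of 60 and 130 tested reads of its gene. Fat3_1 had 1776 of 1782 and 1909 of 1943. The results of these 2 circles therefore largely repeat those of their genes. The Ctnna2_1 level ranged from 0 to 7.11 (median 1.02) in the hippocampus, where 7 samples had none, and from 1.17 to 7.13 (median 4.06) in the frontal cortex. The log2 fold change was -1.71 (SE 0.39, adjusted p = 0.00112) and the ratio of means 0.367. Fat3_1 had a level of 41.1 to 61.4 (median 45.7) in hippocampus and 46.0 to 91.0 (median 58.4) in frontal cortex, a log2 fold change of -0.35 (SE 0.090, adjusted p = 0.00370). It lost its call when no filter on low counts was used and 6656 circles were tested (adjusted p = 0.115).

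Nlgn1_1, the circle of the exon with the start codon, was higher in the hippocampus. It had 277 reads there and 163 in the frontal cortex, and its level ranged from 0 to 10.3 (median 7.53) and from 0 to 8.18 (median 4.95). The log2 fold change was 0.56 (SE 0.20, interval 0.15 to 0.98, adjusted p = 0.0327, edgeR), a ratio of means of 1.49. The call was near the threshold. It was lost without the hippocampal samples ZT13 replicate 2 (adjusted p = 0.0980), ZT17 replicate 1 (0.0551) or ZT21 replicate 2 (0.0638), without the cortical samples ZT5 replicate 2 (0.0574), ZT5 replicate 3 (0.0503) or ZT17 replicate 1 (0.0563), with no filter (0.0831), and under a replicate block (0.0528). Nlgn1_2 had 141 and 118 reads and a log2 fold change of 0.06 (interval -0.53 to 0.66), and Nlgn1_3 had 85 and 87 reads. Nlgn1_1 was 45.4% of Nlgn1 reads in hippocampus and 35.8% in frontal cortex.

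The choice of circle within a gene could be tested for Nlgn1 (adjusted p = 0.406) and Lrp1b (adjusted p = 0.882), and neither passed, against 12 of 119 host genes (10.1%). The 3 leading Lrp1b circles had log2 fold changes of -0.15 (interval -0.64 to 0.33), -0.30 (interval -0.78 to 0.18) and -0.05 (interval -0.63 to 0.53). Adgrl3_1 had 0.25 (interval -0.39 to 0.89). That value rose to 1.12 (adjusted p = 0.0477) without the cortical sample ZT9 replicate 1, the only cortical sample of its time point with reads of this circle.

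Circles with fewer reads were unevenly spread but were not tested. Ptprd_3 (exons 10 to 13) had 38 reads in 8 hippocampal samples and 3 reads in 1 cortical sample, which is 18.01% and 1.53% of the Ptprd reads. Fat3_2, exon 3 of Fat3-205, had 6 reads in the hippocampus, all at ZT17, and 30 reads in 8 cortical samples. The Ptprd_3 samples covered 5 of the 6 hippocampal time points, ZT17 being the one at 0.

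**Figure D4:**
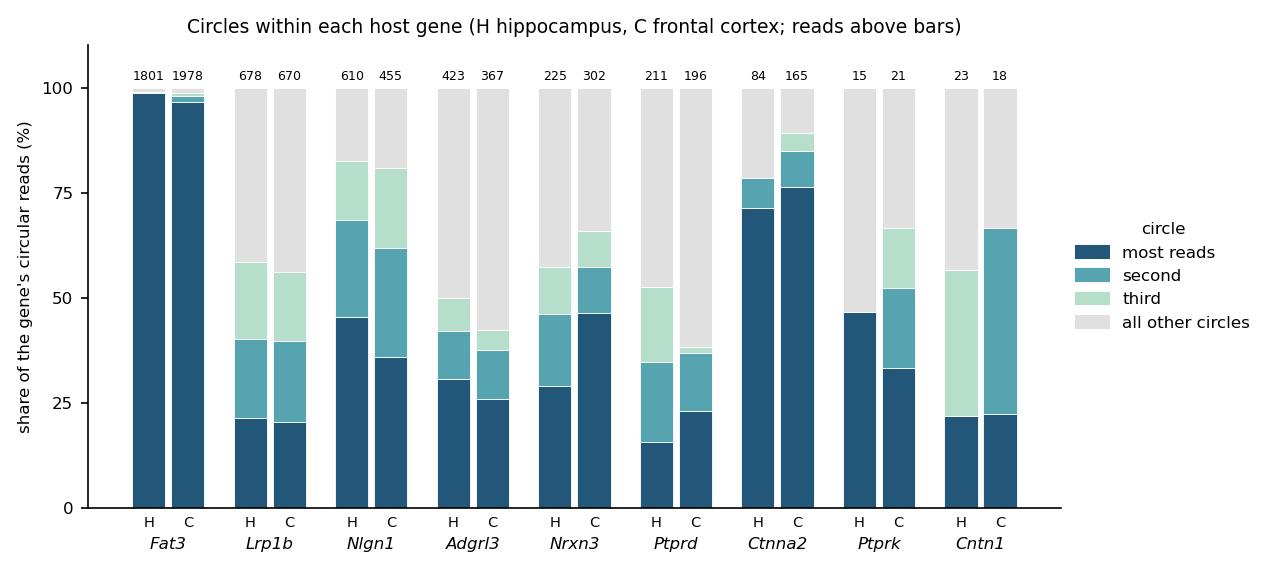
Share of each host gene's circular reads held by its 3 leading circles and by all others, in the hippocampus (H) and the frontal cortex (C), with the reads behind each bar printed above it. Nrxn3_1 holds 28.9% in hippocampus and 46.4% in frontal cortex, Nlgn1_1 45.4% and 35.8%, and Fat3_1 98.6% and 96.5%.

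The number of member circles seen in a sample went with its depth. A sample had 15 to 82 member circles in the hippocampus (31.8 ± 14.7) and 10 to 52 in the frontal cortex (31.8 ± 9.66). When each sample was reduced to 6754 reads the numbers were 9.70 ± 1.66 and 11.7 ± 1.503. The reduction did not remove all of the effect of depth: the shallowest hippocampal sample, ZT13 replicate 1, was not reduced and kept 15 member circles, against 7.19 to 10.98 in the other hippocampal samples, and circles of all genes then numbered 1495 in it and 1067 in the deepest. Members were 0.751% to 1.36% of the circular reads in the hippocampus (median 0.949%) and 0.826% to 1.36% in the frontal cortex (median 1.16%).

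The second comparison asked whether circles of these genes change between the light and dark phases or over the 6 times of day. No member passed any of these tests. In the hippocampus 6 genes and 3 circles were tested, against 1 of 628 host genes (0.159%) and 0 of 582 circles (0.0%) called for the phase, and the same counts for any difference over time. In the frontal cortex 7 genes and 7 circles were tested, against 0 of 570 host genes and 0 of 518 circles for the phase, and 0 host genes and 1 circle (0.193%) over time. DESeq2 called 0 of these members as well. At an unadjusted p under 0.05 none of these members passed in either tissue, and over all host genes 30 did for the phase in hippocampus and 21 in frontal cortex (edgeR).

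Nlgn1 had the lowest p of the hippocampal genes for the phase. Its dark against light log2 fold change was -0.28 (interval -0.61 to 0.05, adjusted p = 0.942, edgeR), with mean levels of 12.9 in the dark and 16.3 in the light. The highest time point was ZT5, at 20.0, 17.4 and 16.7, and the lowest was ZT21, at 11.2, 14.7 and 9.18. These 2, picked after ranking, did not overlap, but every time point overlapped its neighbours in the order. Nlgn1 did not pass the test over time. The cortical Nlgn1 value was -0.24 (interval -0.68 to 0.19).

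Fat3 changed little over the day. Its hippocampal level ranged from 43.3 ± 1.95 at ZT1 to 54.2 ± 11.9 at ZT13, a dark against light log2 fold change of 0.09 (interval -0.15 to 0.34). In the frontal cortex it ranged from 56.4 ± 9.54 at ZT13 to 71.0 ± 24.6 at ZT1, with -0.08 (interval -0.33 to 0.17). Lrp1b stayed between 14.5 and 15.9 in the hippocampus (dark against light -0.11, interval -0.43 to 0.21) and between 14.04 and 21.4 in the frontal cortex (0.09, interval -0.31 to 0.50).

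Nrxn3 had dark against light values of -0.24 in the hippocampus (interval -0.98 to 0.51) and -0.26 in the frontal cortex (interval -0.75 to 0.22). Adgrl3 had 0.18 (interval -0.31 to 0.67) and 0.42 (interval -0.24 to 1.07). Ptprd had 0.26 (interval -0.58 to 1.10) and 0.41 (interval -0.31 to 1.12). Its cortical level was 8.59, 5.01 and 7.38 at ZT13 and 4.08, 2.57 and 0 at ZT9. The 0, of replicate 3, stands for 2 reads that the rule on replicates did not keep. ZT13 and ZT9 did not overlap, but they were the highest and lowest times, picked after ranking. Ptprd did not pass the test over time, so the gap is a description.

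Ctnna2 was too low in the hippocampus for the test of time. Its levels at ZT17, the highest time, were 6.80, 4.97 and 0, and at ZT9, the lowest, they were 1.19, 0 and 0. At ZT9 the 0 of replicate 2 stands for 4 reads that were not kept. In the frontal cortex Ctnna2 was highest at ZT13, at 7.81, 5.01 and 4.54, and lowest at ZT17, at 2.84, 2.35 and 3.00, with no overlap. These times were picked after ranking, and Ctnna2 did not pass the test over time in the frontal cortex. Its dark against light log2 fold change there was 0.01 (interval -0.82 to 0.84). The fitted dark against light effect of Ctnna2 was larger in the hippocampus by 1.62 on the log2 scale (interval 0.00196 to 3.24, adjusted p = 0.760, edgeR), which did not pass the test. Ctnna2 entered that fit of both tissues through its cortical reads. None of the 736 host genes passed that test (0.0%), and 41 of them, Ctnna2 included, had an unadjusted p under 0.05.

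**Figure D5:**
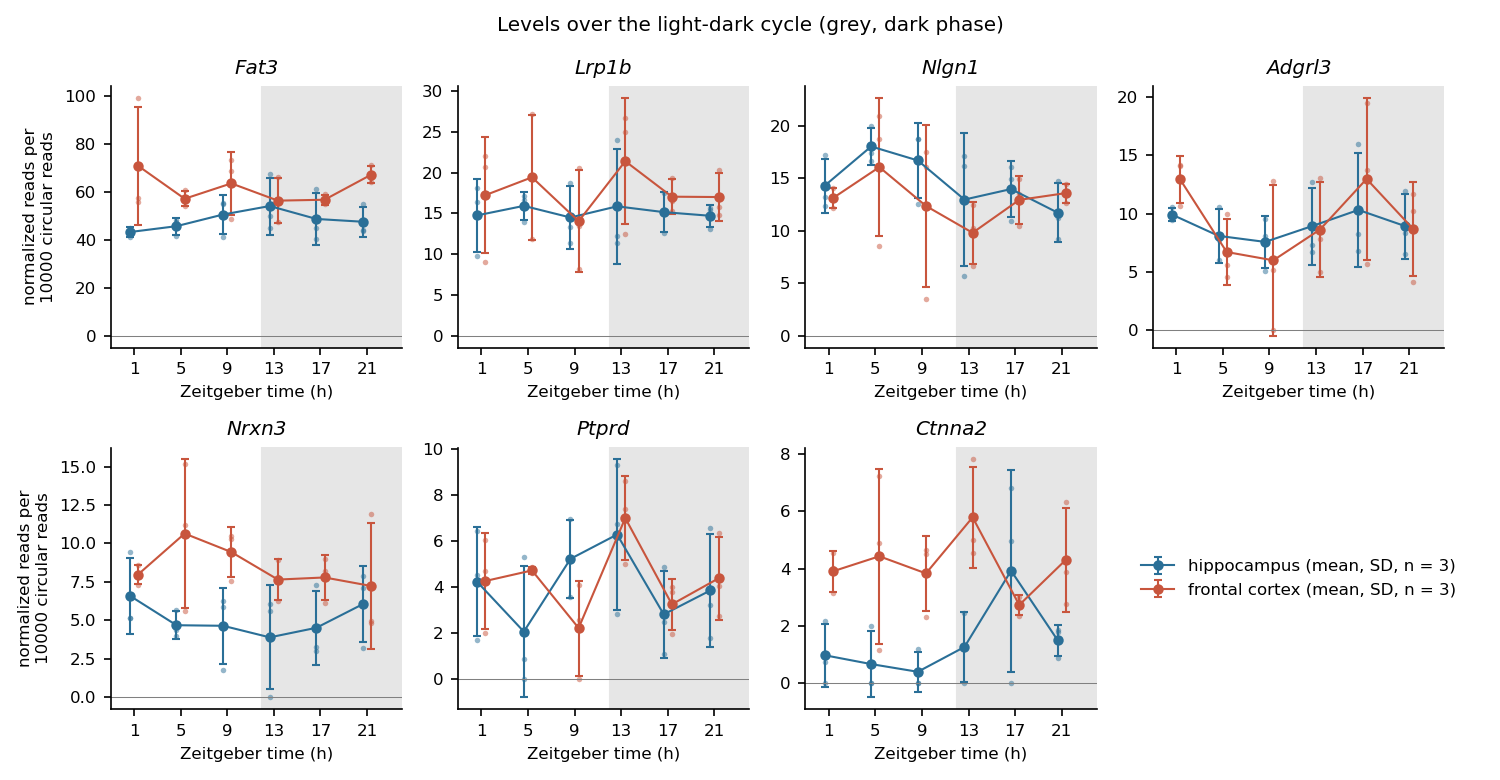
Level of 7 host genes at each zeitgeber time (mean ± SD, 3 samples per tissue and time, reads per 10000 normalized circular reads; the dark phase is grey). The bars of neighbouring times overlap through most of the day, and the lowest mean of Fat3 is 43.3 in hippocampus and 56.4 in frontal cortex.

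Over the day the circles found at a time point ranged from 41 (ZT13) to 107 (ZT1) in hippocampus and from 50 (ZT9) to 71 (ZT21) in frontal cortex. These numbers went with depth, ZT13 holding the shallowest and ZT1 the deepest hippocampal sample. The mean number per sample was 20.0 (ZT13) to 51.3 (ZT1) in hippocampus and 24.0 (ZT9) to 37.3 (ZT17) in frontal cortex. Reduced to 6754 reads a sample, this mean was 9.13 to 11.0 in hippocampus, the highest at ZT13 with its unreduced sample. In frontal cortex it was then 10.6 to 13.01.

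Other adhesion genes showed tissue differences in both directions. Of 13 that could be tested, 8 were called, 5 higher and 3 lower in the hippocampus, beside 32.5% of all host genes. Those with the lowest adjusted p were Tenm3, a teneurin and so of the family that latrophilins bind (log2 fold change 1.19, adjusted p = 3.41e-10), the protocadherin Pcdh15 (-1.77, adjusted p = 3.31e-09) and the immunoglobulin-family receptor Dscam (0.97, adjusted p = 0.00026). None of the 12 tested in hippocampus and 10 in frontal cortex passed the phase or time tests.

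Over the 12 means of tissue and time, the host genes whose circles were most like those of Fat3 were Pinx1 (Pearson r = 0.909), Arhgap26 (0.906) and Kcnh5 (0.874), out of 729 host genes with a median r of -0.07. The 12 means share tissue and depth, so these values are descriptions.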

How the data were processed

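Total RNA of hippocampus and frontal cortex was depleted of ribosomal RNA and sequenced with single-end reads. The authors aligned the reads with BWA to GRCm38 and called circRNAs with CIRI2 at default settings, and the deposited values are raw counts of the circular reads of each circRNA, not normalized, from 6754 to 73252 per sample. A count covers 1 junction, and intervals cover the spread between samples. Here 1 column of values that matches no labelled sample was not used. The authors' own comparisons were not used.

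Ends of each circRNA were matched to GENCODE M21 genes and exons on the same strand. Circular reads of circRNAs found in at least 2 of 3 replicates of a time point (6656 circRNAs) were kept, and counts were summed per host gene; a circle inside 2 genes counted for both. Tests used edgeR 4.0.16 (R 4.3.3): TMM normalization, the default filter on low counts, the quasi-likelihood test over 12 groups of tissue and time or 6 times of a tissue, and Benjamini-Hochberg adjusted p-values over all features, with a threshold of 0.05. Unequal change of the circles of a gene was tested with diffSpliceDGE of edgeR. Log2 fold changes average over time points on a log scale. The steps were tested on simulated data with known changes, whose spread was set below that fitted to the real counts. For 2-fold changes of host genes, the time test found 50.0% in hippocampus and 60.0% in frontal cortex. The phase test found 98.0% and 97.5%. False calls reached 8.26% of the calls in 1 setting, the 4-fold phase test in frontal cortex. Changes of 2-fold at 1 time point could therefore be missed. The alternatives were other normalizations, no filter, other sets of circRNAs, DESeq2 1.42.0, a block for the replicate number, leaving out 3 samples of unusual depth, leaving out each sample, and, added after seeing the data, tissue and time as additive terms.

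All 9 genes, their leading circles, all tested circles and up to 3 other adhesion genes per test were named by rule; Nrxn3_3, Nlgn1_3, Ptprd_3, Lrp1b_3, Adgrl3_3, Cntn1_2, Cntn1_3 and the shared exon edges were described after their values were seen. The members and the lists of other adhesion genes and markers were chosen with earlier results of these data known.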

Additional observations from a re-analysis of the deposited data

Results flagged for a closer look

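In a search of 28 sets of 9 samples (each gene in each tissue and phase, as far as it was tested), 2 samples lay far from the others of their set. Chance alone would give this in about 1 set in 20. The Lrp1b level of the hippocampal sample ZT13 replicate 1, in the dark phase, was 23.96, while the other 8 samples lay between 11.4 and 17.5. The value rests on 17 reads in the shallowest sample. The Fat3 level of the cortical sample ZT1 replicate 2, in the light phase, was 99.37 from 99 reads, while the others lay between 48.8 and 73.3. The tissue difference of Fat3 kept its direction and its call without either sample.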

How the results depend on the processing

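The lower levels of Ctnna2, Fat3 and Nrxn3 in the hippocampus kept their direction and call under all alternatives: -2.29 to -1.43 for Ctnna2, -0.41 to -0.32 for Fat3 and -0.97 to -0.66 for Nrxn3 (log2 fold change). Among single circles, Nrxn3_1 (-2.05 to -1.39) and Ctnna2_1 (-2.22 to -1.42) did the same, while Fat3_1 lost its call with no filter, and Nlgn1_1 (0.48 to 0.67) lost it with no filter, under the replicate block (adjusted p = 0.0528) and without any of 6 single samples. With no filter on low counts 6656 circles were tested, 346 in place of 216 were called, and 2 in place of 4 of the members. The replicate numbers showed no sign of pairing: deviations of same-numbered samples had a mean correlation of -0.02 across tissues (-0.17 to 0.15 over 18 pairs). With low counts, and numbers that need not follow the animals, this cannot tell whether tissues shared an animal. The replicate block left 5 in place of 12 genes for the choice of circle and 0 in place of 1 host gene over time in the hippocampus, and, Nlgn1_1 apart, it changed no call of the members.

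Counts for phase and time were near 0 throughout, with no member called. For the hippocampal phase, 1 host gene became 2 with no filter and 0 with DESeq2, with all listed circRNAs or without 3 samples (0 to 1 with single samples left out). The 0 circles became 4 with no filter and 1 with total reads only, with DESeq2 or with circRNAs found in all 3 replicates (0 to 1 with samples left out). For time in the hippocampus, 1 host gene became 7 with no filter and 0 without 3 samples (0 to 2), and 0 circles became 14 with no filter (0 to 1). For time in the frontal cortex, 0 host genes became 6 with no filter, 3 without 3 samples and 1 with total reads only, with all listed circRNAs or with those in all 3 replicates (0 to 3), and 1 circle became 12 with no filter and 0 with DESeq2 (0 to 1). The difference between tissues became 2 with no filter. The choice of circle ranged up to 19 host genes with samples left out, and from 0 to 1 of the members, Nrxn3, without ZT5 replicates 1 or 3, ZT9 replicate 1, ZT17 replicate 2 or ZT21 replicate 1 of the hippocampus, or ZT5 replicates 1 or 3, ZT13 replicate 1 or ZT21 replicate 2 of the frontal cortex. Member circles per sample fell to 9.70 and 11.7 when each sample was reduced to 6754 reads.

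Values near 0 that did not pass the test changed sign. For the tissues, Adgrl3 became 0.0241 under the replicate block and 0.0246 with circRNAs in all 3 replicates, and Lrp1b_3 became 0.0259 with no filter. With samples left out in turn, the tissue values ranged from -0.14 to 0.12 for Adgrl3, from -0.41 to 0.0258 for Ptprd, from -0.19 to 0.0848 for Lrp1b_3 and from -0.0311 to 0.23 for Nlgn1_2. For the phase in the hippocampus, Ptprd became -0.0659 with all listed circRNAs, and Nrxn3 ranged from -0.59 to 0.0456 with samples left out. For the phase in the frontal cortex, Ctnna2 became -0.0073 with total reads only, -0.0537 with circRNAs in all 3 replicates and -0.0647 without 3 samples, and with samples left out Ctnna2 ranged from -0.15 to 0.20 and Fat3 from -0.13 to 0.0287. The cause of these changes was not tested. Most member circles had fewer reads than the tests need, so differences in them were not detectable at this depth.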
